A study of Mus musculus with 8 samples.

Results

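Keratins are the intermediate filament proteins of epithelial cells, and the genes that encode them were examined in the RNA-Seq profiles of 1 mouse embryonic stem cell (ESC) line and 4 induced pluripotent stem cell (iPSC) lines. The members were every gene row whose name is Krt followed by digits only, which gave 47 of the 22878 gene rows, and 47 distinct keratin genes. Keratins whose names end in a letter, such as Krt6a, Krt6b, Krt33a and Krt33b, fall outside this rule. They are in none of the sums and counts below. R1 is an ESC line, derived from an embryo, and was the only ESC line sequenced. Lines 16-6, 32, S8 and T2 are secondary iPSC lines from hematopoietic cells, adipocyte progenitor cells, epidermal cells and stomach lining cells, respectively. Their donors were 8-week-old all-iPSC mice, which carry doxycycline-inducible Oct4, Sox2, c-Myc and Klf4 in every cell, and all 5 lines were grown on mitomycin C-treated mouse embryonic fibroblast feeders with serum and LIF. R1, 16-6 and 32 had 2 replicate libraries each, and for each of S8 and T2 a single library was sequenced. Every tissue of origin is thus represented by 1 line. The question addressed was whether the keratin genes, and among them those of the epidermis, differed between lines of different origin.

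Each keratin filament is built from a type I and a type II protein in equal numbers, and the pair that a cell makes depends on the kind of epithelium. Krt8 (type II) and Krt18 (type I) form the filaments of simple, single-layered epithelia and are the first keratins of the embryo, where they mark the trophectoderm. Krt7 and Krt19 accompany them in many simple epithelia. Krt5 and Krt14 are the pair of the basal epidermis, Krt1 and Krt10 replace them in the suprabasal layers, and a large set of further keratins builds the inner root sheath and the shaft of the hair. In mouse the type I genes lie in a cluster on chromosome 11 and the type II genes on chromosome 15, with Krt18 as the exception, a type I gene beside Krt8. The files held 25 rows on chromosome 11 and 22 on chromosome 15, and 46 of the 47 overlapped the annotated gene of the same name.

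The promoters of Krt8, Krt18 and Krt42 are shown because these 3 genes had the highest expression levels and differed most between the lines on the linear scale. Each window runs from 250 bases before to 50 bases after the gene start, 5′ to 3′ on the strand of the gene, from RefSeq on GRCm38.p6. The capitals mark every match to TATAAA on either strand, the core of the TATA box, and the matches in Krt8 overlap each other on opposite strands. The Krt8 matches begin at positions -3 and -1 from the gene start, and the Krt42 match begins at base 20 after it. The Krt8 window is chr15:102004293-102004592 on the minus strand, the Krt18 window chr15:102027966-102028265 on the plus strand, and the Krt42 window chr11:100269902-100270201 on the minus strand.
Krt8: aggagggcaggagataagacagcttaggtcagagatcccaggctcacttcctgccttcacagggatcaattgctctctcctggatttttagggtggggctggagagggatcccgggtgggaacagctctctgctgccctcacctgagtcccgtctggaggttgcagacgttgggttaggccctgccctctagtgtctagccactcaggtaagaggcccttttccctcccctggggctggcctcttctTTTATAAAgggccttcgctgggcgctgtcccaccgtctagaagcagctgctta
Krt18: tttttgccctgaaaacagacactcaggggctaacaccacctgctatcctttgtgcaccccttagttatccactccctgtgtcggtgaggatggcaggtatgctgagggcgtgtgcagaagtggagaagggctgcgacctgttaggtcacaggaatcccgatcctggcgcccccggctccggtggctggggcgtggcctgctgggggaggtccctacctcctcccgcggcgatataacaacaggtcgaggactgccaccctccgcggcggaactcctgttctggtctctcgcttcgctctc
Krt42: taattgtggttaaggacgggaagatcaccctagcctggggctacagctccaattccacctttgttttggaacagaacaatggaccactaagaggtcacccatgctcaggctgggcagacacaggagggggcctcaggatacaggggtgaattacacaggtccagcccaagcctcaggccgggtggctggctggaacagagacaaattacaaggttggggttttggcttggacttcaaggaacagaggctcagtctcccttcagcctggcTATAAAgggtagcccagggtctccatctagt
These coordinates belong to another build than those of the expression files, which are in mm9. A promoter entry was found for 33 of the 47 keratins. TATAAA was present in 17 of the 33 (51.5%), against 13.6% of all 32851 windows. GGGCGG, the GC box, was present in 2 keratins (6.1%), against 35.7% of all windows. TGANTCA, the AP-1 site, was present in 1 keratin (3.0%), against 7.8%. Both strands were read, and the Krt18 window held none of these 3 motifs. A match describes the letters and not a site in use. The observed over expected ratio of CpG dinucleotides was 0.24 for Krt8, 0.6 for Krt18 and 0.09 for Krt42, and its median was 0.38 over all windows. It separated expressed from barely expressed keratins little, with a median of 0.32 in the 7 matched keratins that reached an FPKM of 1 and of 0.29 in the other 26.

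Expression is given as FPKM, the number of fragments for each kilobase of a transcript and each 1000000 fragments mapped, after division of the deposited values by 1 constant. It is therefore a level per length and can be set side by side between genes. In units of 1000000, between 15.5 and 16.7 fragments stood behind each library, as estimated from the confidence limits of the values. The study lists several times more mapped reads for S8 and T2 than for the other libraries, which this estimate does not reflect, so that fragment numbers and counting intervals given for S8 and T2 are uncertain. The 6 pluripotency markers Pou5f1, Nanog, Sox2, Zfp42, Esrrb and Dppa5a summed to FPKM of 1815.86 to 4046.88 per library. The 10 fibroblast markers, which the feeder cells express, summed to 899.23 and 930.13 in R1, 1655.98 and 1640.23 in 16-6, 65.6 and 64.59 in 32, 382.91 in S8 and 555.14 in T2. The sum was highest in 16-6 and lowest in 32. In bulk RNA, fewer cells of a type and less RNA per cell cannot be told apart. For S8 and T2 the larger read number and the line cannot be told apart in any comparison with the other lines. Each has a single library, so every SE and p given for them takes its spread from R1, 16-6 and 32, assumes that S8 and T2 vary as they do, and compares libraries rather than replicated lines.

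Few keratins were expressed. Of the 47 keratins, 9 reached an FPKM of 1 in at least 1 library and were tested, 30 were above 0 but stayed below 1 in every library, and 8 were listed at 0 in all libraries (Krt2, Krt24, Krt25, Krt32, Krt35, Krt40, Krt85 and Krt86, mainly genes of the epidermis and the hair follicle). The 9 were Krt8, Krt18, Krt19, Krt7, Krt42, Krt17, Krt20, Krt10 and Krt13. All 4 simple-epithelium keratins were among them, whereas of the 31 epidermal and hair keratins only Krt10 and Krt17 were. None of the 13 hair shaft keratins and none of the 8 inner root sheath keratins reached 1. Krt13 passed through the second R1 library alone and Krt20 through the 16-6 libraries alone, so that their differences follow in part from the filter.

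**Figure D1:**
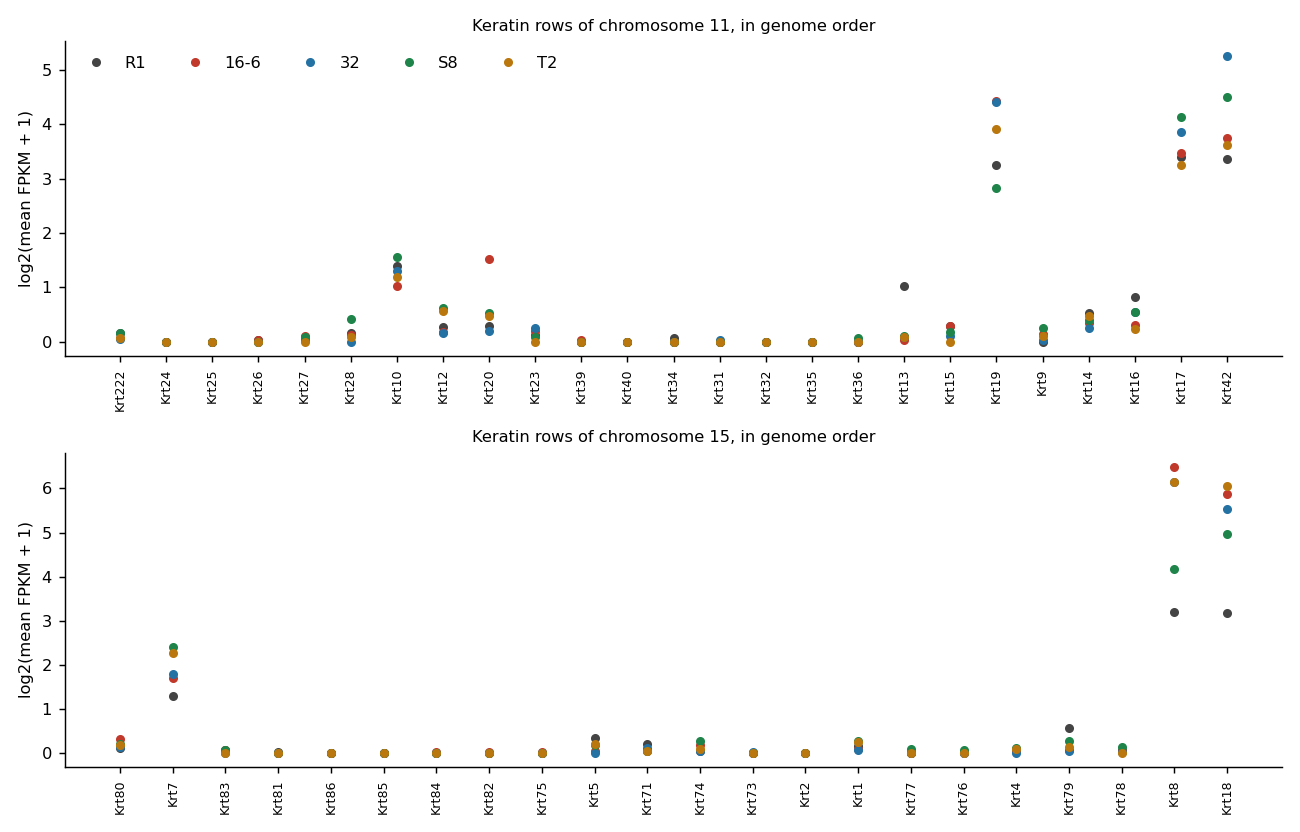
Expression level of each of the 47 keratin rows, as log2 of the line mean FPKM plus 1 on the vertical axis, with the genes in genome order on the horizontal axis for chromosome 11 (upper panel) and chromosome 15 (lower panel) and 1 point per line. Most rows sit at or near 0 in every line, and the high points are Krt19, Krt17 and Krt42 on chromosome 11 and Krt8 and Krt18 at the end of the chromosome 15 cluster.

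The keratin genes together gave an FPKM of 52.9 and 49.7 in the R1 libraries, 196.0 and 198.0 in 16-6, 190.7 and 192.5 in 32, 101.8 in S8 and 176.7 in T2. All iPSC libraries lay above both R1 libraries, and S8 lay between R1 and the other iPSC lines. Krt8 and Krt18 made up most of that spread. Their joint share of the keratin total was 30.7% and 32.7% in R1, 74.0% and 74.8% in 16-6, 61.7% and 58.4% in 32, 46.3% in S8 and 76.6% in T2.

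The epidermal and hair keratins did not follow the simple-epithelium keratins. The 31 genes summed to an FPKM of 14.82 and 12.23 in R1, 13.07 and 12.01 in 16-6, 14.93 and 16.96 in 32, 20.84 in S8 and 10.96 in T2, so that S8, the line from epidermis, was highest and T2 lowest. Krt17 carried most of this sum. Without it the other 30 genes summed to 4.23 in S8, between the 4.45 and 3.45 of the R1 libraries. S8 stayed above the other iPSC libraries, with 2.43 and 2.48 in 16-6, 2.94 and 2.04 in 32 and 2.44 in T2. The ratio of the simple-epithelium sum to the epidermal and hair sum was 1.75 and 2.17 in R1 and 2.76 in S8, against 12.84 and 14.23 in 16-6, 9.4 and 7.96 in 32 and 13.98 in T2. These sums are descriptions and were not tested.

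**Figure D2:**
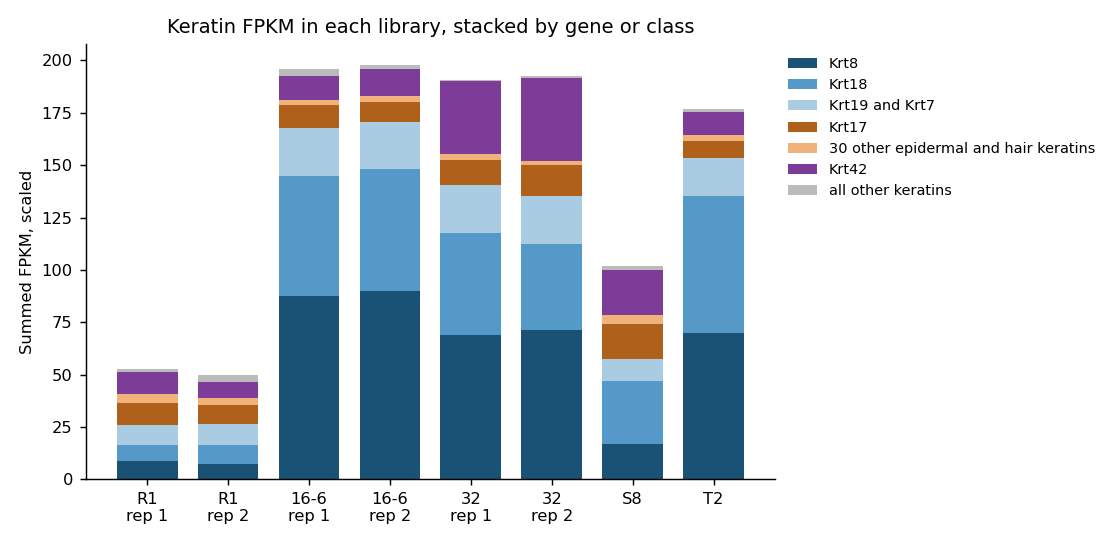
Summed keratin FPKM in each of the 8 libraries, stacked by gene or class, with the library on the horizontal axis and a linear scale from 0 on the vertical axis. The bars reach 52.9 and 49.7 in R1, 101.8 in S8 and 176.7 to 198.0 in the other iPSC libraries, and the height of the epidermal and hair segments changes little beside that of Krt8 and Krt18.

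Krt8 had the widest range of level among the keratins. Its row lies on the minus strand at chr15:101827142-101834773 (mm9), and its FPKM was 8.89 and 7.55 in R1, 87.7 and 89.7 in 16-6, 68.8 and 71.2 in 32, 17.0 in S8 and 70.0 in T2. The values of 16-6, 32 and T2 lay far above both R1 libraries, S8 lay between them, and no 2 replicated lines overlapped. The line means were 8.22 ± 0.95 in R1, 88.7 ± 1.41 in 16-6 and 70.0 ± 1.65 in 32 (SD, n = 2 each). On the linear scale 16-6 was 10.79-fold, 32 8.51-fold, T2 8.52-fold and S8 2.07-fold the R1 mean. Between 182 and 2051 fragments stood behind each of these values. None of the 50-base stretches of the Krt8 transcript occurred in a transcript of another gene, and the same held for Krt18, Krt19 and Krt7.

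Krt18, the partner of Krt8, lies 23874 bases from it at chr15:101858647-101862457 (mm9) on the plus strand. Its FPKM was 7.34 and 8.69 in R1, 57.3 and 58.5 in 16-6, 48.8 and 41.3 in 32, 30.1 in S8 and 65.4 in T2. Every iPSC library lay above both R1 libraries, T2 was highest, and S8 was the lowest of the iPSC lines. The ratio of Krt8 to Krt18 was 1.53 and 1.53 in 16-6, 1.41 and 1.73 in 32, 1.07 in T2, 1.21 and 0.87 in R1 and 0.57 in S8, so that S8 held the least Krt8 for its Krt18. The genes on either side did not share this spread. Eif4b, the next gene beyond Krt18 and a translation initiation factor, ranged from an FPKM of 282.19 to 374.08, and Krt78, the next keratin beyond Krt8, stayed at or below 0.1.

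Krt19, a type I keratin with a short tail, had an FPKM of 8.15 and 8.90 in R1, 20.48 and 20.54 in 16-6, 20.05 and 20.52 in 32, 6.06 in S8 and 14.1 in T2. 16-6 and 32 overlapped each other above all other lines, T2 lay between them and R1, and S8 lay below both R1 libraries. Krt7, a type II keratin of ducts and glands, had an FPKM of 1.5 and 1.37 in R1, 2.38 and 2.14 in 16-6, 2.71 and 2.17 in 32, 4.29 in S8 and 3.81 in T2. The order of the lines thus differed between the simple-epithelium keratins, since S8 was highest for Krt7 and lowest for Krt19. Krt19 lies at chr11:100002126-100007233 and Krt7 at chr15:101242834-101258237 (mm9).

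**Figure D3:**
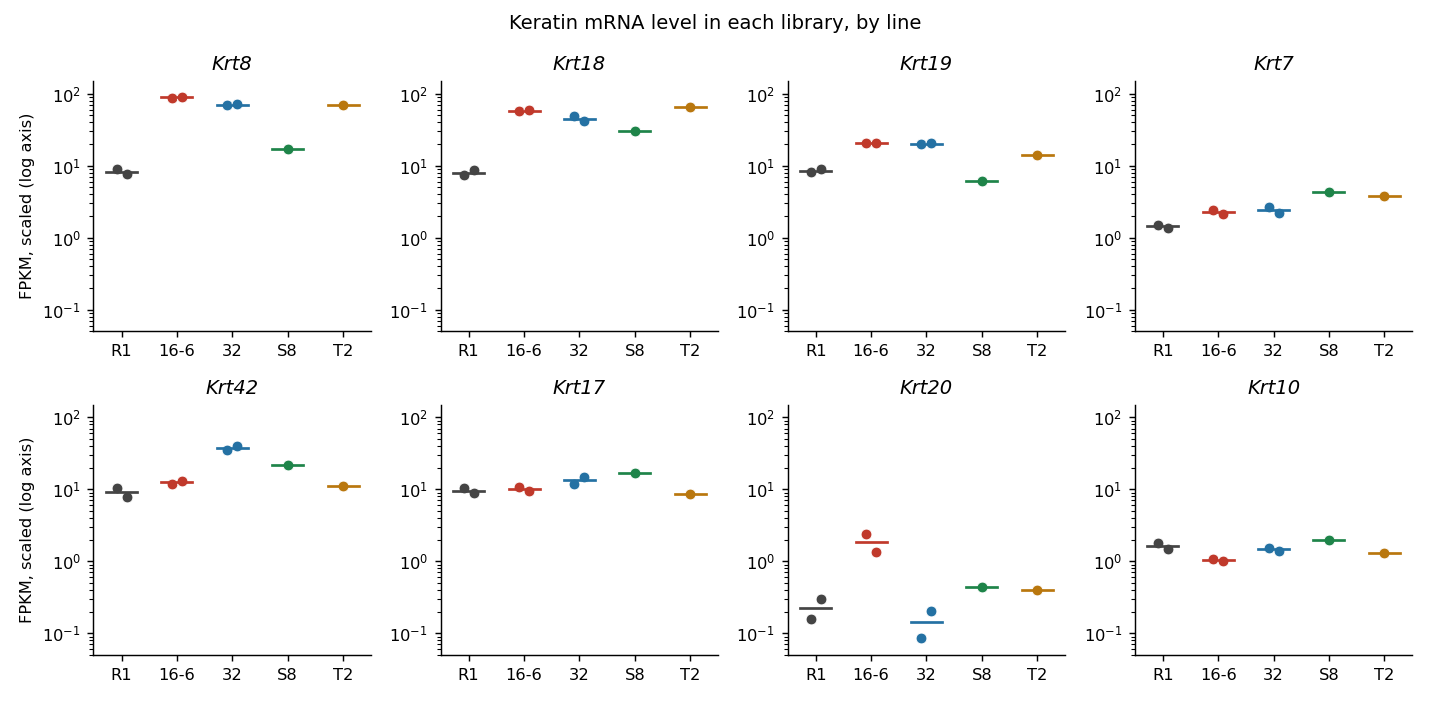
FPKM of 8 of the 9 tested keratins in each library, on a logarithmic vertical axis, with the lines on the horizontal axis, 1 point per library and a bar at the mean of each line. Krt8 ranges from 7.55 in R1 to 89.7 in 16-6, Krt42 is highest in 32, and Krt17 and Krt10 lie within a narrow band in all 5 lines.

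Against R1, line 16-6 had 4 keratins called and all 4 were higher. Called means a Benjamini-Hochberg adjusted p below 0.05 over all 13693 tested genes and at least a 2-fold difference on the scale of log2(FPKM + 1). Of all tested genes 7.11% were called, 3.58% as higher and 3.53% as lower. Krt8 rose by 3.29 on that scale (SE 0.08, limma adjusted p = 5.7e-05), Krt18 by 2.71 (SE 0.11, limma adjusted p = 0.000129) and Krt19 by 1.18 (SE 0.05, limma adjusted p = 0.00018). By size the difference of Krt8 ranked 92 and that of Krt18 125 among the 13693 genes. The fourth gene was Krt20, which entered the test through the 16-6 libraries alone. The median difference was 0.42 over the 9 tested keratins and -0.03 over all tested genes.

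Line 32 also had 4 keratins called against R1, all higher, where 9.77% of all tested genes were called, 1.54% as higher and 8.23% as lower. Krt8 rose by 2.95 (SE 0.08, limma adjusted p = 2.1e-05), Krt18 by 2.35 (SE 0.11, limma adjusted p = 0.000102), Krt19 by 1.16 (SE 0.05, limma adjusted p = 0.000114) and Krt42 by 1.91 (SE 0.14, limma adjusted p = 0.000434). The medians were 0.49 over the tested keratins and -0.02 over all genes. When every library was scaled to the same total, the median of all genes moved to -0.31 and Krt19, at 0.84, no longer passed the fold minimum. Higher genes made up 15.8% of all calls, 5.3% with equal totals and 34.2% after quantile normalization.

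Line T2, from the stomach lining, had 2 keratins called against R1, where 10.5% of all tested genes were called, 3.95% as higher and 6.54% as lower. Krt8 rose by 2.95 (SE 0.09, limma adjusted p = 1e-04) and Krt18 by 2.88 (SE 0.13, limma adjusted p = 0.000208). Krt7 differed by 0.98 and Krt19 by 0.66, both short of the 2-fold minimum on the log2(FPKM + 1) scale. On the linear scale Krt7 was 2.66-fold the R1 mean in T2, beside 2.99-fold in S8. It was called in T2 with a pseudocount of 0.1, after quantile normalization and with equal totals. The medians were 0.26 over the tested keratins and -0.03 over all genes. With a single library for T2, its SE and p hold no spread measured in T2. Higher genes made up 37.6% of all calls and 48.4% with equal totals. Without R1 replicate 1, Krt7 and, as lower, Krt13 joined, but Krt13 had entered the test through R1 replicate 2 alone.

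Line S8, from epidermis, had 3 keratins called against R1, all higher, where 16.7% of all tested genes were called, 6.93% as higher and 9.74% as lower. Krt18 rose by 1.79 (SE 0.13, limma adjusted p = 0.00031), Krt42 by 1.16 (SE 0.18, limma adjusted p = 0.00313) and Krt7 by 1.12 (SE 0.12, limma adjusted p = 0.00105). Krt8 differed by 0.97 (SE 0.09, limma adjusted p = 0.000671) and fell just short of the fold minimum, and Krt19 differed by -0.43. The medians were 0.74 over the tested keratins and -0.03 over all genes. Higher genes made up 41.6% of all calls and 29.6% with equal totals, which moved the median of all genes to -0.15. Without R1 replicate 1, Krt8 and, as lower, Krt13 joined, but Krt13 had entered the test through R1 replicate 2 alone. Without R1 replicate 2, Krt42 came to 0.98 and fell short of the fold minimum. With a single library for S8, its SE and p hold no spread measured in S8. The 4 comparisons with R1 share its 2 libraries and are therefore not independent of each other.

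**Figure D4:**
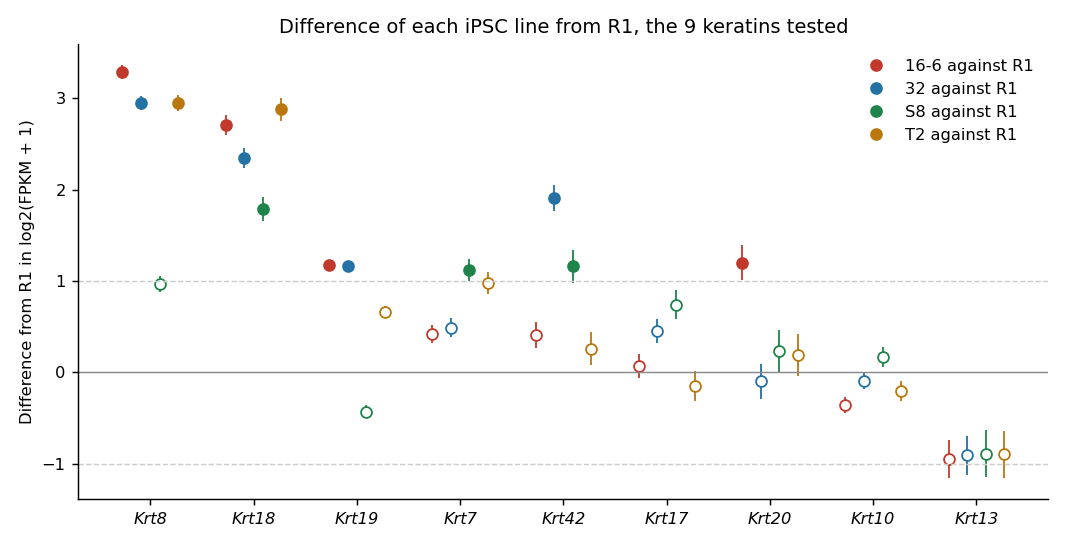
Difference of each iPSC line from R1 in log2(FPKM + 1) for the 9 tested keratins, with the gene on the horizontal axis, points at the fitted difference, bars of 1 SE, filled points for called differences and dashed lines at the 2-fold minimum. Krt8 lies at 2.95 to 3.29 in 16-6, 32 and T2 and at 0.97 in S8, Krt18 is called in all 4 lines, and no keratin is called as lower.

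S8 and T2 were also compared with each other, 1 library against 1 library. Here 3 keratins were called, all lower in S8, where 2.75% of all tested genes were called, 0.92% as higher and 1.83% as lower in S8. Krt8 differed by -1.98 on the log2 scale (SE 0.11, limma adjusted p = 0.00153), and T2 held 4.11-fold the FPKM of S8. Krt18 and Krt19 both differed by -1.09 (SE 0.15 and 0.08, limma adjusted p = 0.00752 and 0.0024). Krt17 and Krt42 differed by 0.89 and 0.90 toward S8, short of the fold minimum. Neither the SE nor the p holds any spread measured in S8 or T2.

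With equal totals the median of all genes between S8 and T2 moved from 0.03 to -0.17, and higher genes made up 10.2% of all calls in place of 33.5%. The 3 keratins stayed called under it, with Krt8 at -2.23. After quantile normalization Krt19 came to -0.98 and no longer passed the fold minimum. The medians were 0.04 over the tested keratins and 0.03 over all genes. Against the mean of the other 3 iPSC lines, S8 had 2 keratins called, both lower, where 5.86% of all tested genes were called, 2.67% as higher and 3.18% as lower. Krt8 differed by -2.09 (SE 0.08, limma adjusted p = 0.000201) and Krt19 by -1.43 (SE 0.06, limma adjusted p = 0.000226), and no keratin was called as higher in S8.

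Krt42 and Krt17 are neighbors on chromosome 11, 1893 bases apart, and are related in sequence. Krt42, at chr11:100124196-100131185 (mm9), had an FPKM of 10.5 and 7.95 in R1, 11.7 and 13.2 in 16-6, 34.8 and 39.7 in 32, 21.7 in S8 and 11.2 in T2. Both libraries of 32 lay above all others, S8 came next, and T2 lay within the range of 16-6 and R1 together. Krt17, a keratin of skin appendages and of stressed epidermis, at chr11:100117531-100122303 (mm9), had an FPKM of 10.4 and 8.79 in R1, 10.6 and 9.53 in 16-6, 12.0 and 14.9 in 32, 16.6 in S8 and 8.52 in T2. S8 was highest, and R1 and 16-6 overlapped. Krt17 was called in none of the 7 comparisons made, and its difference between S8 and R1 was 0.74 (limma adjusted p = 0.0108).

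The ratio of Krt42 to Krt17 was 1.01 and 0.9 in R1, 1.1 and 1.39 in 16-6, 1.3 in S8 and 1.31 in T2, and 2.9 and 2.66 in 32. The level of Krt42 thus parted from that of its neighbor in 32. The sequences share little that a short read could not tell apart, as 0.3% of the 50-base stretches of Krt42 and 4.0% of those of Krt17 occurred in another gene's transcript. Between 16-6 and 32, 2 keratins were called, against 10.3% of all tested genes, 9.22% as higher and 1.09% as lower in 16-6. Krt42 was lower in 16-6, with a difference of -1.5 (SE 0.14, limma adjusted p = 0.000772), and Krt20 was higher. With equal totals the median of all genes moved from -0.06 to 0.21 and Krt42 came to -1.18. Krt8 and Krt18 differed by 0.34 and 0.36 between 16-6 and 32, below the fold minimum.

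Krt20, a keratin of the intestinal and gastric lining, had an FPKM of 2.37 and 1.36 in 16-6, against 0.156 and 0.295 in R1, 0.085 and 0.205 in 32, 0.438 in S8 and 0.397 in T2. Both 16-6 libraries lay above all others, and T2, the line from the stomach lining, was close to S8. The difference rested on 64 and 36 fragments in 16-6 and on 2 to 10 in each other library. Krt20 was higher in 16-6 by 1.2 against R1 (SE 0.19, limma adjusted p = 0.00494) and by 1.3 against 32 (SE 0.19, limma adjusted p = 0.00314). Without 16-6 replicate 1 the difference from R1 was 0.95 and not called. As Krt20 entered the test only through the line in which it is high, its call adds no support to the count of keratins. Krt20 averaged below an FPKM of 1 over all libraries and was not tested under a filter on that mean, which left Krt42 as the only call between 16-6 and 32.

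Krt5 and Krt14, the pair of the basal epidermis, were at the lower edge of detection in S8 as in the other lines. Krt5 had an FPKM of 0.135 in S8, from 3 fragments with an exact 95% Poisson interval of 0.028 to 0.394, against 0.348 and 0.167 in R1, 0.035 in each 16-6 library and 0.161 in T2. It was listed at 0 in both libraries of 32, and no upper limit was computed for a count of 0. For Krt5, 3 fragments stand for an FPKM of about 0.104, by the median of the libraries that hold fragments. Krt14 had 0.317 in S8, from 5 fragments with an interval of 0.103 to 0.739, against 0.71 and 0.194 in R1, 0.201 and 0.357 in 16-6, 0.289 and 0.11 in 32 and 0.385 in T2. S8 lay within the range of the other lines for both genes. The highest Krt5 value, in R1 replicate 1, had a lower limit of 0.167, above the 0.104 of 3 fragments. These intervals cover counting error only.

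Among the rows with few fragments, 14.4% of the 50-base stretches of Krt14, 11.9% of those of Krt16 and 8.5% of those of Krt5 also occurred in another gene's transcript, so that their low values are uncertain. The uncertainty is larger for hair keratins such as Krt81 with 43.2%, Krt34 with 33.1% and Krt31 with 28.1%. Krt10, the suprabasal keratin, was the one epidermal keratin besides Krt17 that was tested, with an FPKM of 1.77 and 1.49 in R1, 1.08 and 1.02 in 16-6, 1.55 and 1.40 in 32, 1.95 in S8 and 1.29 in T2. S8 was highest and 16-6 lowest, and no comparison called Krt10. The highest keratin that was not tested was Krt16, a keratin of activated epidermis, with 0.86 in the second R1 library and 0.457 in S8.

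Krt13, a keratin of the oral and esophageal mucosa, was highest in R1, where Krt8 was lowest. Its FPKM was 0.617 and 1.46 in R1, from 10 and 25 fragments, 0.06 and 0 in 16-6, 0 and 0.133 in 32, 0.079 in S8 and 0.069 in T2. Both R1 libraries lay above every iPSC library, but the R1 libraries themselves differed by more than the iPSC libraries did among each other. The differences from R1 lay between -0.95 and -0.89 and did not reach the fold minimum on the log2(FPKM + 1) scale, which understates differences of low genes. With a pseudocount of 0.1 in place of 1, Krt13 was called as lower in 16-6, 32, S8 and T2. As Krt13 entered the test only through R1 replicate 2, these calls follow in part from the filter and add no support.

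The genes that anchor keratin filaments were examined beside the keratins. Desmosomes are the junctions to which keratin filaments attach, and 12 of 16 genes of desmosomes and keratin linkers were tested. The counts called against R1 were 2 higher in 16-6, 1 higher in 32, 3 lower in S8 and 0 in T2, where 3.58% of all tested genes were higher in 16-6, 1.54% higher in 32 and 9.74% lower in S8. The medians of the list were 0.14 in 16-6, -0.03 in 32, -0.33 in S8 and 0.17 in T2, beside -0.03, -0.02, -0.03 and -0.03 over all tested genes. Dsp, which encodes desmoplakin, the protein that binds keratin filaments to the desmosome, had an FPKM of 4.67 and 4.59 in R1, 11.66 and 11.78 in 16-6, 12.89 and 14.12 in 32, 1.79 in S8 and 7.35 in T2. S8 was the lowest and R1 the next, with all libraries of 16-6 and 32 above T2.

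Dsp rose by 1.18 in 16-6 and 1.36 in 32 and differed by -1.01 in S8 against R1 (limma adjusted p = 0.000222, 0.000101 and 0.000329). Between S8 and T2 it differed by -1.58, lower in S8 (SE 0.09, limma adjusted p = 0.00155), the only gene of the list called there. Plec, which encodes the linker plectin, rose by 1.28 in 16-6 against R1. Perp, a desmosomal membrane protein, and Eppk1, the keratin-binding epiplakin, were lower in S8 than in R1, with differences of -1.11 and -1.03. Other members of the list lay above R1 in S8, by up to 0.53 for Pkp3 and 0.36 for Jup, below the fold minimum. Against the mean of the other iPSC lines, S8 was lower for Dsp, at -2.05, for Perp, at -1.27, and for Dsg2, the desmoglein of simple epithelia, at -1.19.

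**Figure D5:**
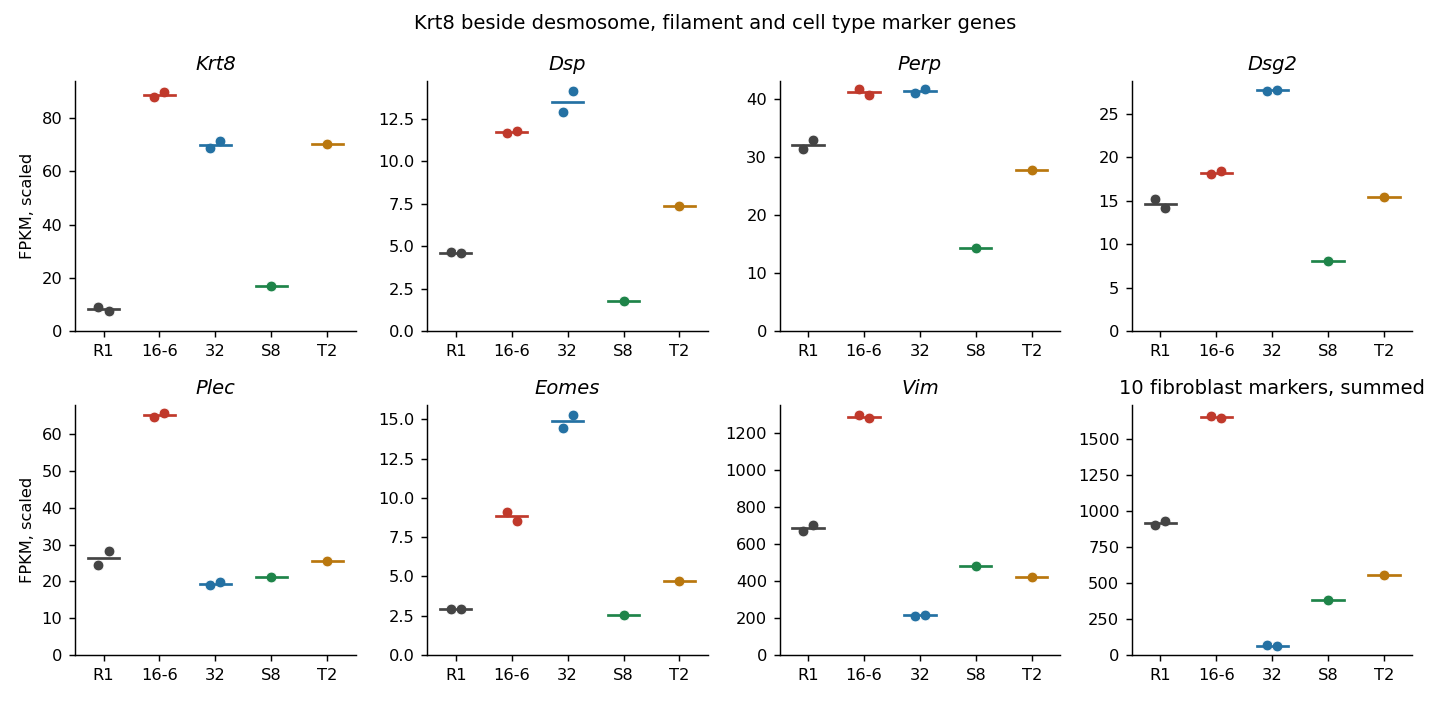
FPKM of Krt8, of 6 genes of desmosomes, filaments and cell types, and of the sum of 10 fibroblast markers in each library, on linear axes from 0, with the lines on the horizontal axis, 1 point per library and a bar at the mean of each line. Dsp is lowest in S8 at 1.79 and highest in 32 at 14.12, and the fibroblast sum is highest in 16-6 and lowest in 32, which both have a high Krt8.

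Markers of other cell types that express Krt8 and Krt18, or that the cultures could hold, were read in the same libraries. The sum of the 10 fibroblast markers lay above R1 in 16-6 and below R1 in 32, and Krt8 was high in both lines. Against R1, 5 of the 10 markers were called as higher and 2 as lower in 16-6, and 10 of 10 as lower in 32. Of all tested genes 3.58% were called as higher and 3.53% as lower in 16-6, and 8.23% as lower in 32. The 2 called as lower in 16-6 were Dcn and Lum, at -2.63 and -2.72, beside -6.92 and -5.6 in 32. Col3a1 was also below R1 in both, at -0.2 in 16-6 and -4.91 in 32. The 6 trophectoderm markers with a row summed to 11.28 and 11.15 in R1, 14.58 and 14.46 in 16-6, 24.2 and 25.43 in 32, 6.05 in S8 and 8.2 in T2. Eomes, a T-box factor of trophectoderm and early mesoderm, had an FPKM of 2.91 and 2.93 in R1, 9.13 and 8.5 in 16-6, 14.44 and 15.29 in 32, 2.53 in S8 and 4.72 in T2, the same order of line means as for Dsp. Cdx2, the defining factor of trophectoderm, had 0.1 and 0.09 in R1, 0.75 and 1.31 in 16-6, 1.1 and 0.85 in 32, 0.08 in S8 and 0.36 in T2. Cdx2 was thus low but, like Krt8, higher in 16-6, 32 and T2 than in R1 and S8, and none of its differences was called. Tead4, which acts before Cdx2 in the trophectoderm, went another way, with an FPKM of 6.73 and 6.64 in R1, 2.95 and 2.96 in 16-6, 7.21 and 6.85 in 32, 1.64 in S8 and 1.76 in T2. The part of these cells in the keratin differences was not tested.

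The 8 primitive endoderm markers summed to 33.01 and 35.96 in R1, 28.34 and 28.6 in 16-6, 21.11 and 20.81 in 32, 9.68 in S8 and 12.4 in T2. This sum was highest in R1, where Krt8 was lowest, but its members did not all follow it. Dab2 and Pdgfra had means of 12.72 and 9.55 in R1, against 1.78 and 0.38 in 32. Lama1 was highest in 32, with a mean of 16.01, and Foxa2 in T2, at 1.32. Apart from Dab2, Pdgfra and Lama1, no marker exceeded 1.52 in any library. The 8 epidermis markers with a row, 4 of them keratins, summed to 5.99 in S8, the lowest, and to 7.04 to 12.83 in the other libraries. This rank leaned on Krtdap, with an FPKM of 0.57 in S8 and 1.62 to 8.73 in the other libraries. Ivl was 0 in S8 and T2, whereas Krt10 and Krt1 were highest in S8. Lor, at 2.73 in S8, lay within the 0.84 to 3.75 of the other libraries. Of the 8 markers, 5 stayed below 1 in every library. Of the 10 stomach markers 8 stayed below 1 in all libraries, and of these Gkn1, Gkn2, Tff1 and Tff2 were listed at 0. The sum was 2.76 in T2, close to 2.73 in S8 and to 2.13 and 3.15 in 16-6. It was 5.44 and 4.22 in 32 and 7.24 and 6.72 in R1. Wt1, a factor of the mesothelium, which also expresses simple-epithelium keratins, had an FPKM of 17.05 in S8, 5.65 in T2 and 1.17 to 3.56 in the other libraries. The other 2 mesothelium markers stayed low, with Msln at 0.35 and Upk3b at 0.55 in S8, within the 0.32 to 0.7 and 0.27 to 0.69 of the other libraries. The part of these cells in the keratin differences was not tested either.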

How the data were processed

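From total RNA, mRNA was enriched with oligo(dT) beads and sequenced as 8 libraries. The authors mapped reads to mm9 with TopHat2 2.0.4 and Bowtie and computed the deposited FPKM with Cufflinks, for which the submitters' processing notes list version 2.0.0 and the study's methods a later release. Unique alignments were kept. The options of Cufflinks were not given in the sources used here, and the deposited FPKM summed to 1.14408e+10 to 1.60283e+10 per library. All values were divided by 12725.7, which set the median total to 1000000 and changed no ratio. Fragments per gene were estimated from the confidence interval, taken as Poisson error. A gene was tested if any library reached an FPKM of 1. log2(FPKM + 1) of all 8 libraries in 5 groups was fitted with limma 3.58.1 in R 4.3.3 (lmFit, eBayes with a trend, Benjamini-Hochberg adjustment, 3 residual degrees of freedom). The fit was tried on simulated data with changes planted only in 16-6 against R1 and not in genes of low level. That trial did not cover the comparisons of the single libraries S8 and T2. Replicate libraries differed by more than counting noise (variance 1.34, 1.08 and 1.29 times Poisson in R1, 16-6 and 32) and were kept as separate samples. P-values measure the spread between these libraries, which may be partly technical.

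Every keratin row was described, with values per library for those that reached an FPKM of 1. Classes, gene lists and marker lists were chosen with earlier results of these data known. The alternatives were another pseudocount, other filters, quantile normalization, equal totals, no trend, no fold minimum, a replicate block, and the omission of each replicate in turn. Tables were joined and summed in Python 3.11.15 with pandas 2.3.3, and drawn with matplotlib 3.10.9.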

Additional observations from a re-analysis of the deposited data

Results flagged for a closer look

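Some keratins differed between iPSC lines themselves, by the limma test of that difference. Between 16-6 and 32, Krt20 was higher in 16-6 by 1.3 and Krt42 differed by -1.5, on the log2(FPKM + 1) scale. Between S8 and T2, Krt8 differed by -1.98, Krt18 by -1.09 and Krt19 by -1.09, all lower in S8. Krt20 entered the test through 16-6 alone. The S8 and T2 values rest on 1 library each, with a spread taken from the other lines, and no group was large enough for a search for outlying samples.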

How the results depend on the processing

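Of 104 counts of called keratins under alternatives, 92 stayed within 1.5 times the value reported, 1 was smaller and 11 were larger. Of 278 differences of single keratins, 274 kept their direction and their call, 4 fell short of the threshold and 0 reversed. With a pseudocount of 0.1 the counts were 5 for S8 and 4 for T2 against R1. Both counts include Krt13 as lower, which entered the test through R1 replicate 2 alone. A filter on the mean over all libraries left 1 between 16-6 and 32. Without a fold minimum the counts were 7 in 16-6 (5 higher, 2 lower) and 7 in 32 (6 higher, 1 lower) against R1. Between 16-6 and 32 the count was 5 (3 higher, 2 lower in 16-6). The share of all tested genes that passed without a fold minimum was not computed, so these counts have no background beside them.

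Leaving out each replicate gave 3 to 5 calls for 16-6, 4 to 5 for 32, 2 to 5 for S8 and 2 to 4 for T2 against R1. The other comparisons stayed at 2 (16-6 against 32), 3 (S8 against T2) and 2 (S8 against the other iPSC lines). Where the omission left a line with 1 library, that library was assumed to vary like the other lines. The highest counts against R1 came without R1 replicate 1 and include Krt13, which entered the test through R1 replicate 2 alone. With a replicate block on the libraries of R1, 16-6 and 32 the counts were 4, 4 and 2 for 16-6 against R1, 32 against R1 and 16-6 against 32, and 4, 4 and 2 without it. The block changed no call. Deviations of libraries with the same number correlated at -0.097, 0.001 and 0.028, so the numbers do not pair the samples. Counting the 16-6 libraries as 1 sample, an alternative chosen after seeing the data, gave the reported counts.

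The tests have 3 residual degrees of freedom, all from R1, 16-6 and 32. The values of Krt5 and Krt14 rest on 0 to 14 fragments per library and have wide counting intervals.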

Other observations

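Of 8 other intermediate filament genes, 6 were tested, and 1 was called in 16-6, 3 in 32, 1 in S8 and 1 in T2 against R1, where 7.11%, 9.77%, 16.7% and 10.5% of all tested genes were called. Nes, which encodes nestin of neural progenitors, rose by 1.95 in 16-6, 1.29 in 32 and 1.43 in T2. Its FPKM was 10.04 and 10.21 in R1, 42.31 and 41.42 in 16-6, 26.43 and 25.83 in 32, 10.91 in S8 and 29.05 in T2. S8 and R1 were the low lines for Nes, as they were for Krt8. Vim, the filament gene of mesenchymal cells, and Lmna, which encodes lamin A/C, differed by -1.68 and -1.82 in 32, where the fibroblast markers were also lowest. Lmnb1, a nuclear lamin, was higher in S8 by 1.15.

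Of 14 epithelial transcription factors, 12 had a row and 9 were tested. Ovol2, a zinc finger factor that maintains epithelial identity, was called as higher in 16-6 by 1.1 and in 32 by 1.24 against R1. It was the only one of the 9 called as higher there, where 3.58% and 1.54% of all tested genes were. Against R1, Ovol2 also differed by 1.47 in S8 and 1.38 in T2, from 1 library each. Its FPKM was 1.45 and 1.17 in R1, 4.55 and 3.42 in 16-6, 4.05 and 4.85 in 32, 5.38 in S8 and 5.01 in T2. S8 was highest here, unlike for Krt8. Klf5, a factor of epithelia and pluripotent cells, was lower in S8, at -1, and in T2, at -1.15. Trp63, the regulator of stratified epithelia, stayed at an FPKM of 0.01 to 0.08.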
